A study of Mus musculus with 18 samples.

Results

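The nuclear-encoded respiratory chain genes were taken as the rows of the count table whose symbol begins with Nduf followed by a, b, c, s or v, with Uqcr, with Cox4 to Cox8 or with Atp5, or is one of Sdha, Sdhb, Sdhc and Sdhd. Of 24527 rows, 93 matched, and the 85 with a summed count of 500 or more over the 18 libraries are described here. The summed count chose the members and is not a result. Just inside the limit were Cox7a1 with 708 counts and Ndufaf6 with 1809 counts, and just outside it were Cox4i2 with 67 and Cox6b2 with 53. The other names left out were Cox6a2 with 29 counts, Ndufa4l2 with 15, Cox8b with 3, and Cox7b2, Cox8c and Ndufs5 with 0. Ndufs5 has a copy elsewhere in the genome with 99.373% identity, and whether this bears on its 0 was not tested. All 85 members passed the filter on low counts.

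RNA was sequenced from 3 mouse pancreatic ductal adenocarcinoma lines of mixed strain background, PD454, PD7591 and PD883. For 48 h each line received the vehicle DMSO, 2.5 µM ionomycin, an ionophore that lets calcium cross membranes, or 10 ng/ml of the cytokine TGFb. Each of the 9 groups had 2 libraries, named here by treatment, line and the library number of the labels, so each treatment had 6. All groups, controls included, grew in a glucose-rich medium with nicotinamide, cholera toxin, dexamethasone, triiodothyronine, bovine pituitary extract, insulin, transferrin, selenium, a soybean trypsin inhibitor, a serum substitute, gentamicin and amphotericin B. The genotype of the lines and whether the 2 libraries came from separate cultures were not given in the sources used here, so p-values measure the spread between these libraries, which may be technical.

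Respiratory complexes I to IV pass electrons from NADH and succinate to oxygen and, except for complex II, pump protons across the inner mitochondrial membrane. The ATP synthase lets these protons flow back and makes ATP. Subunits of complexes I, III and IV and of the ATP synthase are encoded partly by mitochondrial and mostly by nuclear genes, and the nuclear ones must be made in balance to assemble. Many of the nuclear genes encode very small proteins from short messages, while the catalytic and redox subunits tend to be larger. Pancreatic ductal carcinoma cells use both glycolysis and respiration, and calcium entering mitochondria is known to stimulate the dehydrogenases that feed the chain.

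Library totals ran from 17591005 to 37894692 counts. The ductal markers were present in every library, with a summed level of 3977 to 9726 CPM (counts scaled by effective library size), and 9 of 9 were tested. With TGFb 2 of the 9 rose and 5 fell, among the falls Krt19, from 984 ± 654 to 18.1 ± 14.2 CPM (SD over the means of the 3 lines), with a log2 fold change of -5.86 (adjusted p = 8.98e-10), and with ionomycin 2 rose and 0 fell. Fibroblast markers (4 of 6 tested) had sums of 1.97 to 5.82 CPM in DMSO libraries, 1.46 to 4.19 in ionomycin libraries and 5.86 to 86.5 in TGFb libraries. Immune markers (2 of 5 tested) summed to 3.10 to 5.87, 8.31 to 29.2 and 2.54 to 3.55 CPM in the same order, and endothelial markers (3 of 5 tested) stayed at or below 3.43 CPM. Of the other pancreatic types, Cpa1 and Ptf1a (acinar) and Ins1, Ins2 and Sst (endocrine) had 0 counts, and the acinar and endocrine sums stayed at or below 6.18 and 0.3004 CPM. The part of these marker changes in the results below was not tested. In these bulk samples, fewer cells of a type and less RNA per cell cannot be told apart. None of 26 names of mitochondrially encoded genes was found among the rows, so the mitochondrially encoded subunits are not analysed here.

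Members have short transcripts, with a median of 763 bases against 2630 for all tested genes, and 51 of the 85 (60%) were under 1000 bases against 9.74% of all tested genes. The libraries differed in how much they favoured short transcripts, and the members followed. For each library, the length correlation is Spearman's, over all tested genes, between transcript length and the deviation of a gene's log2 CPM from the mean of its line. A negative value marks a library rich in short transcripts. Over the 18 libraries the median member deviation and this length correlation had a Pearson r of -0.921 and a Spearman correlation of -0.905, a description of libraries in which both measures share the same reads. Without DMSO PD454 14 and TGFb PD454 18, r was -0.934. The members' deviation also tracked that of 1285 other genes under 1000 bases, with r = 0.952. The length correlation was under -0.2 in 4 libraries: -0.396 in DMSO PD454 14, -0.246 in TGFb PD454 18, -0.231 in DMSO PD883 8 and -0.215 in TGFb PD883 12. Ionomycin libraries had length correlations from -0.00172 to 0.261, none of them among those 4.

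**Figure D1:**
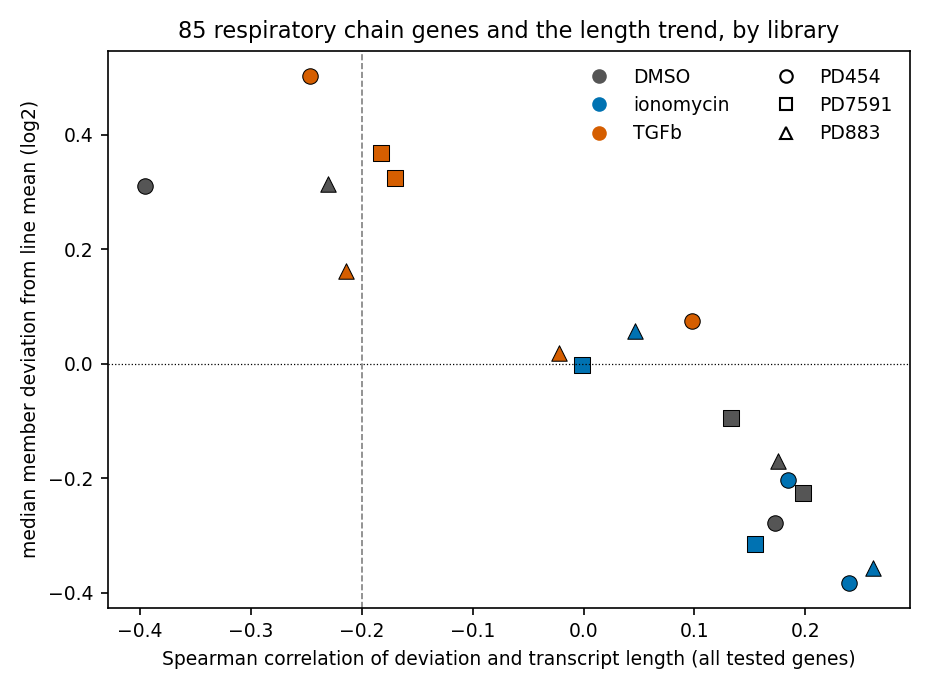
Median deviation of the 85 members from their line mean (log2, y axis) against the length correlation of each library (x axis). Each point is 1 of 18 libraries, colour gives treatment and shape gives line. The points fall along 1 descending band, from 0.50 in TGFb PD454 18 to -0.38 in ionomycin PD454 16, and the 4 libraries left of the dashed line at -0.2 are with DMSO or TGFb.

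Duplicates of 1 group differed along this trend. DMSO PD454 14 was higher than DMSO PD454 13 in 84 of 85 members, with a median difference of 0.58 (log2). DMSO PD883 8 was higher than DMSO PD883 7 in 84 of 85, with a median of 0.48. Ionomycin PD883 10 was lower than ionomycin PD883 9 in 78 of 85, with a median difference of -0.46. The pairs of PD7591 with DMSO and with TGFb lay closer, with median differences of -0.09 and 0.05. Differences of this size exceed the median treatment effects on members below, which were -0.19, 0.28 and -0.42 over the 3 lines. Counts of members, and most members' values, are therefore also given with an offset that removes each library's length trend, and some without the 4 libraries rich in short transcripts. The offset uses annotated lengths, and those of Atp5g1, Ndufab1 and Ndufb2 are uncertain because their annotated forms differ widely.

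On a scale per kilobase of transcript, the catalytic ATP synthase subunits were the highest members, at 649 CPM per kilobase for Atp5b and 406 for Atp5a1, averaged over the 18 libraries. Next came Cox6a1 at 339, Cox4i1 at 320.1, Cox8a at 249.6 and Ndufa4 at 223, all subunits of complex IV, the enzyme that reduces oxygen. The lowest were Atp5s at 3.02, Cox7a1 at 4.07 and the complex I assembly factors Ndufaf6 at 4.17 and Ndufaf4 at 4.36. Where subunits have tissue isoforms, the general form prevailed: Cox4i1 had 96955 summed counts and Cox4i2 67, Cox6a1 had 75781 and the muscle form Cox6a2 29, and Cox8a was among the highest members while Cox8b had 3 counts. Of the members, 19 have a near copy in the annotated transcripts, and their counts are less certain. In 8 of them the copy has 98% identity or more: Atp5g1, Atp5g2, Atp5h, Atp5l, Atp5o, Cox7c, Ndufs3 and Uqcrb. Of the annotated exonic length of Atp5o, 54.15% also overlaps the same-strand gene Donson.

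With ionomycin a few members fell, of which Uqcrh of complex III and Atp5g3 of the ATP synthase kept their calls under every alternative and Cox7a1 of complex IV fell the most. Of 85 members, 11 fell (12.9%) and 0 rose, while of all 13827 tested genes 16.1% fell and 17.2% rose (edgeR quasi-likelihood test, adjusted p under 0.05). The share that fell was thus near the background. The median log2 fold change of members was -0.19, against -0.03 for all tested genes, and 71 of 85 were below 0. At an unadjusted p under 0.05, 1 member was higher and 20 lower. DESeq2 called 1 higher and 16 lower, and limma-voom 1 and 11.

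Uqcrh, the acidic hinge protein of complex III that helps cytochrome c dock, fell in all 3 lines. With DMSO its level was 41.4 to 105 CPM (median 57.1), with ionomycin 27.4 to 57.8 CPM (median 32.0) and with TGFb 62.3 to 104 CPM (median 91.5). The ionomycin libraries lay below both DMSO libraries of their own line each time: 33.3 and 27.4 against 45.5 and 73.1 CPM in PD454, 28.6 and 30.8 against 47.3 and 41.4 in PD7591, and 57.8 and 38.2 against 67.0 and 105 in PD883. The log2 fold change was -0.80 ± 0.17 (SE, adjusted p = 0.00124), -0.48 with the length offset (adjusted p = 2.94e-04) and -0.52 without the 4 libraries (adjusted p = 0.0112). This call held under all 32 alternatives tried.

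Atp5g3, 1 of 3 genes for the same c subunit of the ATP synthase's rotating ring, behaved alike. Its level was 113 to 244 CPM (median 143) with DMSO, 86.3 to 119 CPM (median 93.1) with ionomycin and 153 to 228 CPM (median 194) with TGFb. In each line both ionomycin libraries were below both DMSO libraries. Its log2 fold change was -0.68 ± 0.12 (adjusted p = 3.10e-04), -0.44 with the offset (adjusted p = 5.16e-04) and -0.47 without the 4 libraries (adjusted p = 0.00119), and the call also held under all 32 alternatives. The other c subunit genes did not pass, at -0.33 ± 0.22 for Atp5g1 (adjusted p = 0.261) and -0.20 ± 0.17 for Atp5g2 (adjusted p = 0.382), and the difference between the 3 genes was not tested. Atp5g1 shares 99.757% of its sequence with a copy.

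Promoters are shown for the 3 members whose calls against DMSO held under every alternative (Ndufaf2 with TGFb) and for Atp5k, which differed most between the treatments. NRF1 and the ETS factor GABP are known to bind promoters of many respiratory genes, and CCAAT boxes bind NF-Y. Each line gives the 250 bases before the start in RefSeq (GRCm38.p6), 5′ to 3′ on the gene's strand, with capitals for matches on either strand to the NRF1 motif (GCGC, any base, then TGCGC), the ETS motif (CCGGAAG) or the CCAAT box (CCAAT).
Uqcrh, chr4:116075071-116075320, minus strand: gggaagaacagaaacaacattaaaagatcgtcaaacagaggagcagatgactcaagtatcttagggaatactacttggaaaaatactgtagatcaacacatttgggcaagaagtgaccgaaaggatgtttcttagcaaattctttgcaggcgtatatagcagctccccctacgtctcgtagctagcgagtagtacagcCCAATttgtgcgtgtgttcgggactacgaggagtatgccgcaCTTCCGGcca
Atp5g3, chr2:73911327-73911576, minus strand: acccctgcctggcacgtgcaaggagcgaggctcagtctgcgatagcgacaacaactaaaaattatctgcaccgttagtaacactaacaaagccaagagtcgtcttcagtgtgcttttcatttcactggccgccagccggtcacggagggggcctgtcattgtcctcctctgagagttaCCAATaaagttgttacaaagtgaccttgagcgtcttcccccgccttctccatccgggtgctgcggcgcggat
Ndufaf2, chr13:108158626-108158875, minus strand: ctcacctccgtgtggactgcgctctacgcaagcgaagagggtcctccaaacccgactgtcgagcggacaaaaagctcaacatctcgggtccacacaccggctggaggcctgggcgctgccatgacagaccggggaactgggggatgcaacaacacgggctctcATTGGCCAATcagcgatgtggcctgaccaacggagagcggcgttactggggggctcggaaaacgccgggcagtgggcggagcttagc
Atp5k, chr5:108434400-108434649, minus strand: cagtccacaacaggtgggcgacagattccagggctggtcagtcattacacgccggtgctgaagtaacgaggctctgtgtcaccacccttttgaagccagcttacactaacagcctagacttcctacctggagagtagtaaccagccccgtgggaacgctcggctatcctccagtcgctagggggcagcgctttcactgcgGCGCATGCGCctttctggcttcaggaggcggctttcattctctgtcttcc

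In Uqcrh the CCAAT box began 52 bases before the start and an ETS match 10 bases before it. In Atp5g3 the CCAAT box began 72 bases before the start, in Ndufaf2 adjoining matches on opposite strands began 87 and 82 bases before it, and in Atp5k the NRF1 match began 50 bases before it. Promoters were found for 73 of the 85 members and for 10887 of the tested genes. The NRF1 motif was in 17.8% of the members' promoters, 8.87% of those of tested genes and 4.23% of all 27025 promoters, the ETS motif in 19.2%, 15% and 7.83%, and CCAAT in 45.2%, 40.7% and 37.5%. The YY1 motif (AAGATGGC) was in 2.74%, 2.36% and 1.83%, the E-box (CACGTG) in 9.59%, 9.56% and 6.86%, and TATAAA in 6.85%, 8.47% and 14.3%. Of the members that fell with ionomycin with and without the offset, 7 had a promoter, with NRF1 in 1 and CCAAT in 4. Among the 20 with a promoter that rose with TGFb in both fits, NRF1 was in 4, ETS in 6 and CCAAT in 11. A match is a run of letters and not a site shown to be bound.

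Cox7a1, the isoform of a complex IV subunit typical of heart and muscle, fell the most and is the least counted member. It stood at 3.88 and 4.86 CPM in the DMSO libraries of PD883 and 1.04 and 0.538 with ionomycin, and at 0.987 and 1.44 against 0.923 and 0.523 in PD454 and 0.959 and 1.26 against 0.612 and 0.645 in PD7591. Pairs did not overlap in any line, and the gap was widest in PD883. Atp5a1, Atp5g3, Cox7a1 and Uqcrh were the 4 members lower with ionomycin without overlap in all 3 lines (4.71%, against 10.4% of all tested genes), and 0 were higher in that way (against 12.2%). The log2 fold change was -1.46 ± 0.36 (adjusted p = 0.00419), and -1.14 with the offset (adjusted p = 0.0124). Without PD883 it was -0.77 and no longer called (adjusted p = 0.0875), as with summed duplicates (adjusted p = 0.0662).

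The other 8 falls were weaker or rested on few libraries. Atp5k, the e subunit that helps join ATP synthase dimers, had -1.09 ± 0.35 (adjusted p = 0.0225), and Uqcrb, which borders the quinone site of complex III, -0.90 ± 0.30 (adjusted p = 0.0255). Ndufaf2, a complex I assembly factor, had -0.64 ± 0.19 (adjusted p = 0.0142), and the complex I accessory subunit Ndufc1 -0.61 ± 0.20 (adjusted p = 0.0244). With the offset these were -0.70, -0.59, -0.34 and -0.39, all called, with adjusted p of 0.0212 to 0.0499. Without the 4 libraries rich in short transcripts they became -0.36, -0.37, -0.24 and -0.23, and none of the 4 was called. Atp5j2, Atp5o, Atp5f1 and Atp5a1, the f subunit, the connecting OSCP subunit, the b stalk and the catalytic alpha subunit of the ATP synthase, had -0.62, -0.42, -0.31 and -0.23. Atp5a1, which is long, kept its call with the offset (-0.21, adjusted p = 0.0371) and lost it in 25 of 32 alternatives. By role, the ATP synthase had 6 of 15 lower with all 15 below 0 (4 lower and 12 below 0 with the offset), complex III 2 of 8, complex IV 1 of 12, complex I accessory subunits 1 of 28 and NDUFAF assembly factors 1 of 8. None of the 7 complex I core subunits and none of the 4 subunits of complex II passed (edgeR), and none of these 11 passed with the length offset.

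Uqcrq, another small subunit of complex III, went the other way; it was chosen after its values were seen. It stood at 51.7 and 52.6 CPM with DMSO and 85.6 and 109 with ionomycin in PD7591, and at 78.3 and 130.1 against 236 and 127 in PD883. In PD454 it stood at 41.7 and 97.0 against 76.5 and 65.6, so the duplicates overlapped in PD454 and PD883 and not in PD7591. The log2 fold change of 0.58 ± 0.22 just missed the threshold (adjusted p = 0.0504). It passed with the length offset (0.90, adjusted p = 1.42e-05), without the 4 libraries (0.98, adjusted p = 6.78e-04), and with DESeq2 (adjusted p = 0.0245). Uqcrq and Uqcrh have annotated transcripts of 504 and 474.5 bases, and their log2 fold changes with ionomycin had opposite signs. The part of transcript length in this was not tested.

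**Figure D2:**
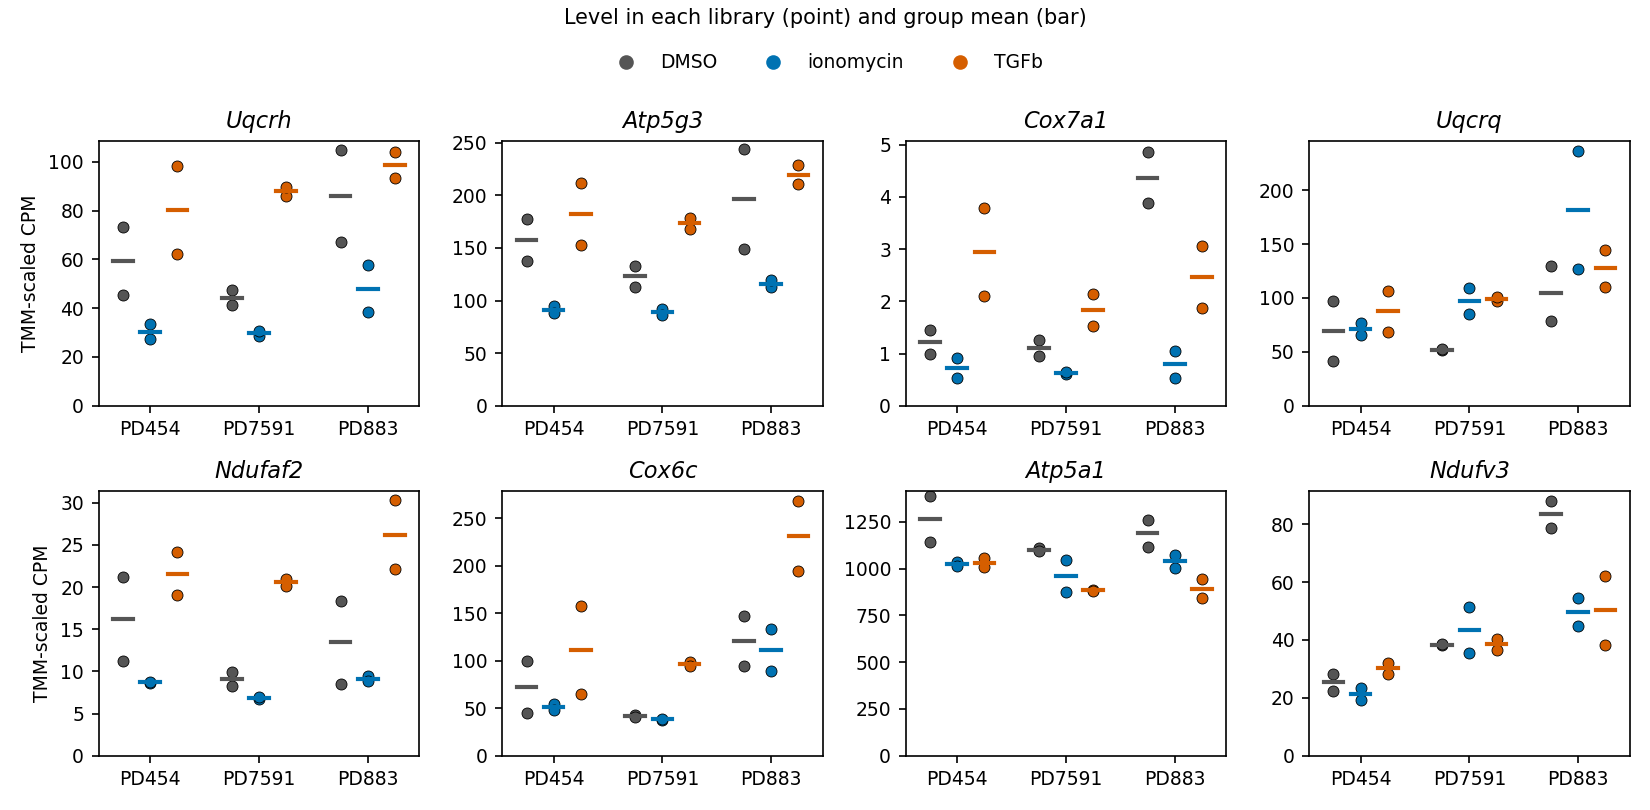
Level of 8 members (TMM-scaled CPM, linear axes from 0) in each of the 18 libraries, by line and treatment, with points for libraries and bars for the mean of 2. With ionomycin, Uqcrh, Atp5g3 and Cox7a1 are below DMSO in every line, while Ndufaf2 and Cox6c are highest with TGFb in group means of every line.

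With the length offset the picture for ionomycin was even: 9 members rose and 9 fell, with a median of -0.04 and a background of 19.5% higher and 17.3% lower, 36.8% together. All 9 that fell were among the 11, Atp5j2 and Atp5o being lost. The 9 that rose were Uqcrq, Ndufa7 (0.54), Cox8a (0.50), Cox7c (0.35), Ndufaf5, Ndufb9, Ndufb3, Ndufa6 and Ndufa4. Without the 4 libraries, 2 rose and 3 fell (Uqcrq and Ndufa7 higher, Atp5g3, Uqcrh and Cox7a1 lower; background 14.7% and 12.3%), with a median of -0.0047. The count of 11 was also moved by single libraries: 4 were called without DMSO PD454 14 or without DMSO PD883 8, 5 without ionomycin PD454 15 or ionomycin PD883 10, 6 without ionomycin PD454 16 or ionomycin PD7591 3, and 7 without DMSO PD7591 1. Leaving out a line gave 4 calls without PD454, 5 without PD7591 and 5 without PD883. These counts hold calls in both directions. Uqcrq was called higher without DMSO PD454 14, DMSO PD883 8, ionomycin PD454 16, ionomycin PD883 10 or line PD454, and the other calls were falls. Of all tested genes 23.4% to 29.9% were called in these fits, and 10.5% to 13.9% were lower. Scaling to library totals in place of TMM factors moved the median of all tested genes to -0.12 with ionomycin and gave 21 lower members (background 21.7%) with a median of -0.27, which is -0.16 relative to that shift.

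With TGFb members rose about as often as all genes and seldom fell, and without PD7591 the rises lost their calls, except that of Ndufaf2. Of 85 members, 23 rose (27.1%) and 2 fell (2.35%), while 24.3% of all tested genes rose and 26.5% fell. The share of rises was near the background, and the share of falls was far below it. The median of members was 0.28 against 0.00 for all tested genes. With the offset 24 rose and 7 fell (background 26.8% and 26.3%, 53.1% together), 22 of the rises being the same genes, and the median was 0.11. Without the 4 libraries 48 rose and 1 fell (background 23.5% and 23.0%), with a median of 0.44. Among the libraries left in that fit, the length correlation was 0.133 to 0.198 with DMSO and -0.182 to 0.098 with TGFb. These ranges do not overlap, so treatment and length trend cannot be told apart there. Without the single library DMSO PD454 14, 42 rose and 1 fell (background 26.7% and 25.6%). Without PD7591 1 rose and 2 fell (background 17.7% and 19.7%), with a median of 0.15.

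In complex IV all 12 members were above 0 with TGFb, with and without the offset, and 7 rose: Cox6c, Cox6b1, Cox7c, Cox7a2, Cox7b, Cox5a and Ndufa4, which is named for complex I but is a subunit of complex IV. The median of the 12 was 0.51, and 0.28 with the offset, where the same number passed. Without PD7591, Cox6c, Cox6b1, Cox7c, Cox7a2, Cox5a and Ndufa4 all lost their calls, with values of 0.36 to 0.79 and adjusted p of 0.0504 to 0.307. Cox6c had the largest rise of all members. Its level was 40.7 to 147 CPM (median 69.7) with DMSO and 64.7 to 268 CPM (median 128) with TGFb, with pairs of 42.9 and 40.7 against 99 and 94.7 CPM in PD7591 and 94.6 and 147 against 194 and 268 in PD883. In PD454 the pairs 44.9 and 99.2 and 64.7 and 158 overlapped. The log2 fold change was 0.92 ± 0.21 (adjusted p = 0.00121), 0.72 with the offset (adjusted p = 1.55e-04), and 0.79 without PD7591 (adjusted p = 0.0504). Cox7a2l, the factor that joins complexes III and IV into supercomplexes, rose by 0.65 ± 0.15 (adjusted p = 0.00143), and by 0.58 with the offset. Cox6b1 and Cox7c had 0.65 ± 0.20 and 0.60 ± 0.16, the abundant Cox4i1, Cox6a1 and Cox8a between 0.23 and 0.35 without passing.

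Ndufaf2, the complex I assembly factor that had fallen with ionomycin, rose with TGFb and kept that call in all 32 alternatives. Its level was 8.29 to 21.2 CPM (median 10.6) with DMSO, 6.77 to 9.44 CPM (median 8.68) with ionomycin and 19.0 to 30.3 CPM (median 21.5) with TGFb. The TGFb libraries of PD7591, at 21.0 and 20.2 CPM, and of PD883, at 22.1 and 30.3, lay above their DMSO pairs of 9.91 and 8.29 and 8.55 and 18.3. In PD454 the pairs 11.2 and 21.2 and 19.0 and 24.1 overlapped. The log2 fold change was 0.84 ± 0.18 (adjusted p = 9.27e-04), 0.67 with the offset (adjusted p = 2.22e-04). Of its annotated exonic length, 65.7% overlaps an opposite-strand long noncoding RNA gene (B230220B15Rik), and since the strand mode of counting was not given, reads of the 2 cannot be told apart. Among the 8 NDUFAF factors Ndufaf1 also rose (0.34 ± 0.12, adjusted p = 0.0221).

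Atp5a1 and Sdha fell with TGFb. Atp5a1 stood at 1092 to 1390.1 CPM (median 1129.5) with DMSO and 841 to 1056 CPM (median 915) with TGFb, with no overlap between the pairs of any line. It shared this with Ndufa9 alone among members (2 of 85 lower, against 17.5% of all tested genes, and 0 higher, against 15.7%). The change was a log2 fold change of -0.34 ± 0.09 (adjusted p = 0.00265), and -0.32 with the offset. Its partner in the catalytic head, Atp5b, had -0.23 ± 0.10 (adjusted p = 0.0630), which passed with the offset (-0.26, adjusted p = 0.0100), and Atp5c1, the central stalk, -0.15 ± 0.09 and -0.22 with the offset (adjusted p = 0.00833). Of the small membrane subunits of the same enzyme, Atp5k rose by 0.89 ± 0.34 (adjusted p = 0.0365, a call lost in 11 of 32 alternatives) and Atp5l, the g subunit, by 0.63 ± 0.18 (adjusted p = 0.00715). Atp5j2 (0.51 ± 0.22, adjusted p = 0.0639) and the c subunit genes Atp5g1, Atp5g2 and Atp5g3 (0.17 to 0.43) did not pass, and Atp5j2 passed with the offset (0.37, adjusted p = 0.0410). Rises were also called for the stator subunits Atp5h (d) and Atp5j (coupling factor 6). Of the 15 ATP synthase members, 4 rose and 1 fell, and 5 rose and 3 fell with the offset. In complex II, Sdha, the flavoprotein that oxidises succinate, had -0.22 ± 0.09 (adjusted p = 0.0403, a call lost in 23 of 32 alternatives, the offset among them). The iron-sulphur subunit Sdhb rose by 0.42 ± 0.16 (adjusted p = 0.0297). The membrane anchors Sdhc and Sdhd had 0.11 ± 0.11 and -0.18 ± 0.14 without passing, Sdhd being called lower with the offset (-0.23, adjusted p = 0.0319). Of 28 complex I accessory subunits 5 rose, with Ndufb2 (0.60 ± 0.21) and Ndufa11 (0.57 ± 0.17) the largest, and 1 of 8 in complex III, Uqcrh (0.54 ± 0.17, adjusted p = 0.0107).

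**Figure D3:**
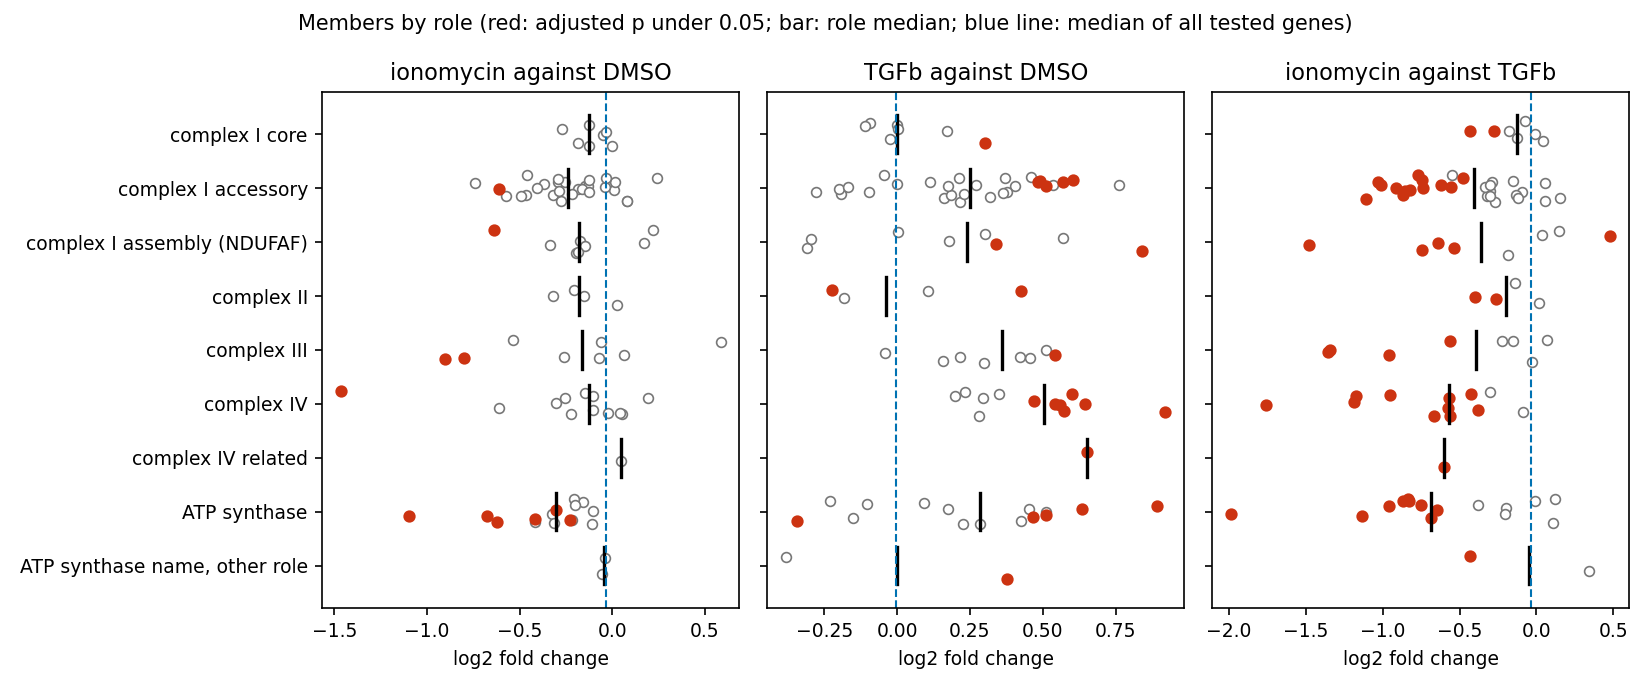
Log2 fold change of each of the 85 members, grouped by complex and role, in 3 comparisons. Red points passed an adjusted p of 0.05, bars mark role medians and the dashed line the median of all tested genes. With TGFb all 12 complex IV members are above 0, also with the length offset, whereas with ionomycin the lowest points are Cox7a1, Atp5k, Uqcrb and Uqcrh.

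Between the treatments the members differed most. Of 85, 46 were lower with ionomycin than with TGFb (54.1%) and 1 was higher, against 31.9% and 31.0% of all tested genes, 62.9% together. The median was -0.42 against -0.04. With the offset 31 were lower and 11 higher, all 31 among the 46, with a median of -0.12 and a background of 32.8% lower and 31.3% higher, 64.1% together. Without the 4 libraries 43 were lower and 1 higher (background 29.5% and 28.5%), where TGFb kept 4 libraries and ionomycin 6. Both ionomycin libraries lay below both TGFb libraries in every line for 30 members (35.3%), against 22.9% of all tested genes. They lay above them for 1, Atp5s, against 23.1%. The length correlations were separated in the same way, being higher in both ionomycin libraries than in both TGFb libraries of every line. These values carry no length offset, so treatment and length trend cannot be told apart in them or in the fit without the 4 libraries. With library totals the median of all tested genes was -0.11 and that of members -0.49, a difference of -0.39. The comparison shares its libraries with the 2 comparisons against DMSO, so it is no separate evidence for them.

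Between the treatments, 14 of the 26 named calls held under all 32 alternatives: Atp5g3, Atp5j2, Atp5k, Atp5l, Cox6b1, Cox6c, Cox7a1, Cox7a2, Ndufaf2, Ndufb2, Ndufc1, Uqcr11, Uqcrb and Uqcrh. Atp5k had the largest difference, with 4.88 to 27.8 CPM (median 7.76) with ionomycin and 18.9 to 56.6 CPM (median 39.1) with TGFb, a log2 fold change of -1.99 ± 0.35 (adjusted p = 9.46e-05), and -1.41 with the offset (adjusted p = 8.47e-05). Ndufaf2 and Uqcrh had -1.48 ± 0.19 (adjusted p = 2.05e-06) and -1.34 ± 0.17 (adjusted p = 1.58e-06), and -1.01 and -0.77 with the offset. Their ionomycin and TGFb values did not overlap over all 12 libraries. The 1 member higher with ionomycin was the assembly factor Ndufaf3, at 6.28 to 8.50 CPM (median 7.67) against 4.23 to 6.64 CPM (median 5.33), with a log2 fold change of 0.48 ± 0.17 (adjusted p = 0.0188) and 0.60 with the offset. It lost its call without PD7591 (adjusted p = 0.159), without PD883 (adjusted p = 0.0790), with summed duplicates (adjusted p = 0.112), without TGFb PD7591 5 (adjusted p = 0.0519) and without TGFb PD883 11 (adjusted p = 0.0528). In complex IV 10 of 12 members were lower with ionomycin, 5 of 12 with the offset, where Cox4i1, Cox5a, Cox5b, Cox7c and Ndufa4 lost their calls and Ndufa4 turned to 0.01 (adjusted p = 0.897).

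Set against all tested genes of like length, members moved with the trend and partly beyond it. With ionomycin, genes under 600 bases had a median of -0.33 over 375 genes and -0.26 over the 25 members. At 600 to 1000 bases the medians were -0.19 and -0.27, at 1000 to 2000 bases -0.07 and -0.13, and at 2000 to 4000 bases -0.03 and, over 9 members, -0.18. With TGFb the same bins gave 0.27 for all genes and 0.46 for members, 0.17 and 0.23, 0.06 and 0.11, and -0.01 and 0.00. Between the treatments they were -0.59 and -0.75, -0.37 and -0.60, -0.14 and -0.15, and -0.01 and -0.19. Members under 600 bases were thus further from 0 than all genes of that length with TGFb and between the treatments, and not with ionomycin. Across the 85 members, log2 fold change and log2 length had r = 0.31 with ionomycin and r = -0.46 with TGFb, against 0.11 and -0.03 over all 13715 tested genes with a length; genes are not independent replicates.

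**Figure D4:**
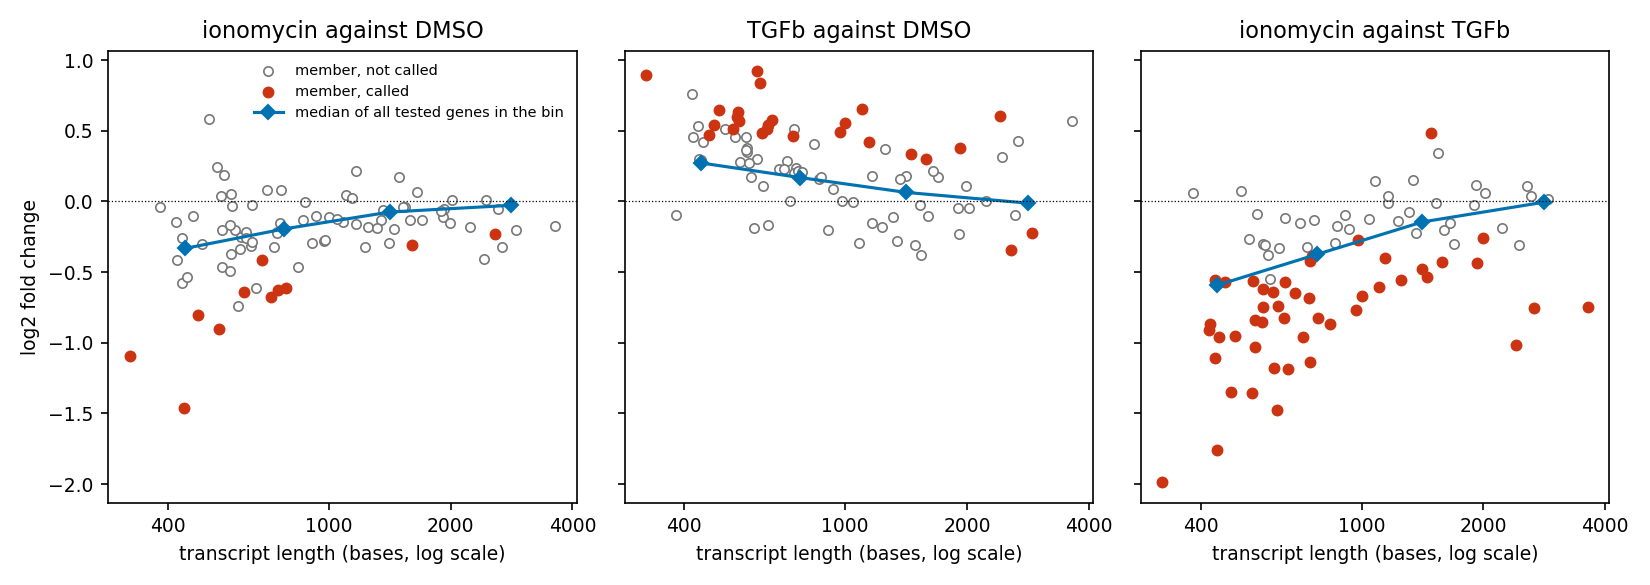
Log2 fold change of the 85 members (points, red where called) against annotated transcript length (log axis) in 3 comparisons, with diamonds for the median of all tested genes in 4 length bins. The blue line runs from -0.33 under 600 bases toward 0 with ionomycin and from 0.27 toward 0 with TGFb, and the members scatter around it on both sides.

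Within single lines, each with 2 libraries against 2, the most members were called with TGFb in PD7591. There 19 rose and 0 fell (background 17.7% and 20.1%), with a median of 0.56. In PD454 1 rose and 1 fell (background 14.8% and 16.1%) with a median of 0.23, and 8 rose and 1 fell with the offset (background 18.6% and 17.2%, 35.8% together). In PD883 3 rose and 5 fell (background 18.4% and 20%) with a median of 0.04. Leaving out PD7591 reduced the 25 calls over the 3 lines to 3, of which 1 was a rise. In PD7591 the length correlation was 0.133 and 0.198 with DMSO and -0.170 and -0.182 with TGFb, so treatment and length trend moved together there. With the offset 20 rose and 2 fell (background 20.4% and 20.6%), and the median was 0.21. In PD883 the 5 falls, Ndufv3, Ndufaf3, Sdha, Atp5a1 and Ndufa9, all held with the offset, where 7 rose and 11 fell (background 21.7% and 21.5%).

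With ionomycin 5 members fell in PD454 (background 9.34%), 0 in PD7591 (background 7.41%) and 4 in PD883 (background 10.9%), and 0 rose in any line (background 11.7%, 11.2% and 11.6%), with medians of -0.37, 0.01 and -0.23. With the offset 5 rose and 3 fell in PD454 (background 14.5% and 10.7%), 2 and 2 in PD7591 (13.4% and 10.5%) and 4 and 3 in PD883 (14.8% and 13%). At an unadjusted p under 0.05, edgeR gave 23, 1 and 4 lower and 0, 2 and 2 higher in these lines. Uqcrh had -0.97, -0.58 and -0.84 in the 3 lines, and -0.39, -0.54 and -0.50 with the offset, where it was called in each. Uqcrq was called higher in each with the offset, at 0.65, 0.92 and 1.12.

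Tested jointly for unequal effects among the 3 lines, the fit called 0 of 85 members for ionomycin and 0 for TGFb, and 2.59% and 5.26% of all tested genes (edgeR). At an unadjusted p under 0.05 there were 4 members for each treatment, and DESeq2 and limma-voom each called 0 and 1. The differences between lines in the paragraphs above are therefore not shown as such. Cox7a1 came nearest for TGFb (adjusted p = 0.0722): its effect was 1.25 in PD454, 0.71 in PD7591 and -0.85 in PD883. It passed with the offset (adjusted p = 0.0393), with DESeq2 (0.0288), with limma-voom (0.0464), without the low-count filter (0.0118) and without TGFb PD883 11 (0.0449). Ndufv3, an accessory subunit of the NADH-oxidising arm of complex I, passed in the last of these (adjusted p = 0.0246) and without the filter (0.0153), with 0.25, 0.00 and -0.73. For ionomycin, Ndufaf4 passed without the 4 libraries (adjusted p = 0.0416), with -1.02, 0.54 and -0.05 in the full fit.

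**Figure D5:**
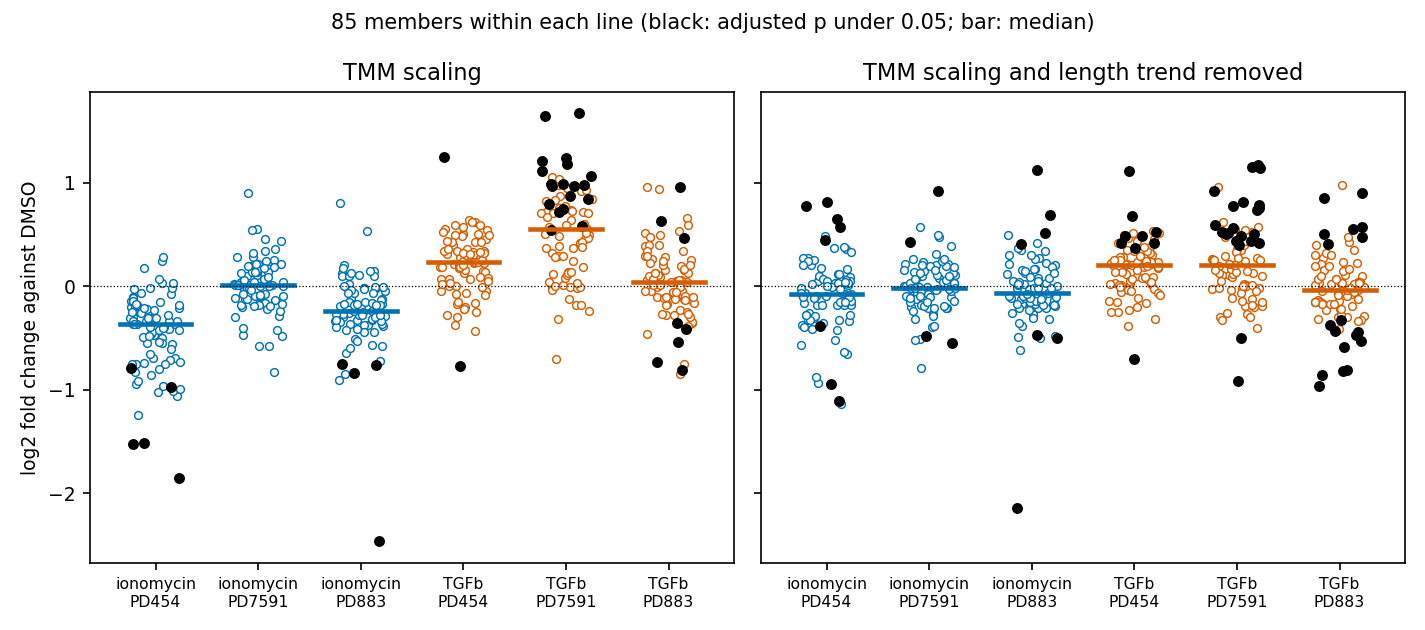
Log2 fold change of the 85 members against DMSO within each line, with TMM scaling alone (left) and with the length trend also removed (right). Points are members, black where the adjusted p was under 0.05, and bars are medians. The medians spread from -0.37 to 0.56 on the left and from -0.07 to 0.21 on the right.

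With the vehicle alone, members differed between the lines about as often as all tested genes, and less often with the offset. PD883 was mostly the highest, with and without the offset. With DMSO, 41 of 85 members differed between the 3 lines (48.2%, against 47.9% of all tested genes), 38 with the offset (background 52.5%). PD883 exceeded PD7591 in 50 members and was lower in 0 (background 18.4% and 15.7%), with a median of 0.83; with the offset these were 34 and 2 (background 19.4% and 16%), and the median 0.42. PD883 exceeded PD454 in 25 and was lower in 2 (background 17.9% and 17.4%), with a median of 0.55 and 0.33 with the offset, where 29 were higher and 3 lower (background 21.6% and 19.4%). PD7591 was higher than PD454 in 0 and lower in 3 (background 9.97% and 11.6%), and with the offset 3 were higher, Cox4i1, Ndufaf7 and Ndufv3, and 3 lower (background 11.9% and 13.2%). Leaving out 1 library at a time moved the 41 in both directions. The count was lowest without DMSO PD883 8, which leaves 1 library in that group. The share of all tested genes in these fits was not worked out.

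Ndufv3 had the smallest p among members, at 22.3 and 28.3 CPM in PD454, 38.1 and 38.6 in PD7591 and 78.7 and 88.2 in PD883, with 1.72 ± 0.23 for PD883 against PD454 (adjusted p = 1.02e-04) and 1.45 with the offset. Its 3 pairs did not overlap. Uqcrfs1, the Rieske iron-sulphur protein of complex III, stood at 55.1 and 68.6, 64.3 and 59.0 and 97.7 and 109 CPM in the same order, with 0.74 ± 0.15 for PD883 against PD454 (adjusted p = 0.00174) and 0.67 with the offset. The accessory subunits Ndufa6 and Ndufb9 were 1.12 ± 0.18 and 1.36 ± 0.22 higher in PD883 than in PD7591, Atp5h 1.44 ± 0.29, on the log2 scale; with the offset these were 0.58, 0.84 and 0.90.

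The genes around the chain did not move as 1 block. Cyc1, which carries a haem of complex III, and Cycs, cytochrome c, fall outside the name rule. Cyc1 had 0.01 ± 0.13 with ionomycin and 0.07 ± 0.13 with TGFb, neither called, and Cycs rose with TGFb (0.66 ± 0.25, adjusted p = 0.0374). Of 10 chain genes outside the name rule, 4 rose and 4 fell with TGFb. The ATP synthase inhibitor Atpif1 and 2010107E04Rik, a small ATP synthase-associated protein, fell with ionomycin (-0.49 ± 0.17 and -0.77 ± 0.24) and rose with TGFb (0.48 ± 0.17 and 0.73 ± 0.23), and Atpif1 lost both calls with the offset (adjusted p = 0.250 and 0.0973). Gpd2, the glycerol phosphate dehydrogenase that feeds quinone, fell with TGFb (-1.07 ± 0.11, adjusted p = 2.30e-07). Among 4 ATP synthase assembly factors 3 fell with ionomycin, Tmem242 (-0.55 ± 0.13) and Fmc1 (-0.71 ± 0.22) among them, and Fmc1 lost its call with the offset (adjusted p = 0.0758). Of 19 tested complex IV assembly factors, 1 rose (Cox18, 0.50 ± 0.13) and 4 fell with ionomycin, while 2 rose (Cox17, the copper chaperone, 0.73 ± 0.19) and 1 fell (Cox15, -0.65 ± 0.10) with TGFb. Of 8 complex I assembly factors with other names, 1 rose and 1 fell with ionomycin, and 1 rose (Tmem70, 0.54 ± 0.14) and 2 fell with TGFb. Of 10 factors for complexes II and III, 3 rose with ionomycin (Ttc19, 0.44 ± 0.10, among them), and 4 rose and 3 fell with TGFb.

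The ribosomes, whose genes are also short, had medians of the same sign as the members. Of 78 tested cytosolic ribosomal protein genes, 2 fell with ionomycin and 18 rose with TGFb, with medians of -0.26 and 0.45, and -0.07 and 0.28 with the offset. Of 78 mitochondrial ribosomal protein genes, 1 rose and 18 fell with ionomycin and 16 rose and 3 fell with TGFb, with medians of -0.17 and 0.18. The pyruvate dehydrogenase and citric acid cycle genes, which are longer, had 3 of 17 higher and 1 lower with ionomycin, Dld (0.61 ± 0.12, adjusted p = 5.99e-04) and Pdha1 (0.29 ± 0.08) among the rises, and 2 higher and 4 lower with TGFb, Suclg2 (-0.91 ± 0.11) and Ogdh (-0.49 ± 0.09) among the falls. Of 16 regulators of mitochondrial biogenesis, 2 rose and 3 fell with ionomycin and 3 rose and 7 fell with TGFb. Ppargc1a, the coactivator PGC-1alpha, stood at 2.72 ± 1.97 CPM with DMSO, 4.01 ± 1.88 with ionomycin and 0.175 ± 0.111 with TGFb (SD over the means of the 3 lines). Its log2 fold change was -3.79 ± 0.46 with TGFb (adjusted p = 1.46e-06). Its relative Ppargc1b rose with ionomycin (1.79 ± 0.38, adjusted p = 0.00143) and fell with TGFb (-1.42 ± 0.43, adjusted p = 0.00969). The factor gene Nrf1 fell with ionomycin (-0.40 ± 0.11, adjusted p = 0.0111). Of 6 ATP carriers and porins, 2 fell with each treatment, Vdac1 with both (-0.27 ± 0.09 and -0.44 ± 0.09), and of 9 tested hypoxia targets 2 rose and 2 fell with ionomycin and 1 rose and 6 fell with TGFb.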

How the data were processed

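The authors deposited raw read counts per gene for the 18 libraries. Per the submitters' processing notes, CASAVA, Trimmomatic 0.32, STAR and featureCounts were used with mm10; strand mode, annotation release and the RNA kit of each library were not given in the sources used here. Totals were 17591005 to 37894692 counts.

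Counts were fitted with edgeR 4.0.16 (R 4.3.3): TMM factors, filterByExpr over the 9 groups (13827 genes tested), robust quasi-likelihood F test, treatment plus line, or 1 mean per group for tests within and between lines. Benjamini-Hochberg adjustment ran over all tested genes, calls needed an adjusted p under 0.05, and values after ± are standard errors of log2 fold changes unless named otherwise. Levels are TMM-scaled CPM. Alternatives used limma 3.58.1, DESeq2 1.42.0, other scalings, filters and models, and left out libraries or lines. The length offset removed each library's lowess trend (span 0.3) of log2 CPM on transcript length, the median over GENCODE M21 coding transcripts, known for 13715 tested genes. Near copies are annotated transcripts with at least 90% identity over at least 50% of the length. The fit was tested on simulated data.

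The members and lists were chosen with earlier results of these data known. Genes were named by rule: up to 8 called members with the largest rise and 8 with the largest fall per treatment comparison, the 4 with the smallest p per test of line dependence, the 5 with the smallest p between lines, tissue isoforms, complex II, the member nearest each role's median, Cyc1, Cycs, and up to 2 called genes per list and comparison. Other members named, among them Uqcrq, Ndufa11 and Atp5c1, were chosen after their values were seen. The result for 1 member is not reported here.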

Additional observations from a re-analysis of the deposited data

Results flagged for a closer look

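The libraries of each treatment were compared for 42 of the 85 members, those named by rule, and for the median of members. In 5 of these 129 sets of 6 libraries, the highest or lowest library stood apart by more than 0.625 of the range. For 6 draws from 1 population, chance alone gives about 1 in 20, and 5 of 129 is not above that rate. Each set here pools 3 lines with 2 libraries each, and the sets share libraries, so the rate need not apply. TGFb PD454 17 was the low library for 3 of the 5 flagged sets, with 62.28 CPM of Uqcrh, 184.4 CPM of Cox4i1 and 82.76 CPM of Cox8a. Ionomycin PD7591 3 was low for Atp5a1, at 874.3 CPM. Ionomycin PD883 9 stood apart for Atp5g2, at 101.6 CPM.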

How the results depend on the processing

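The 11 calls with ionomycin became 21 with library totals, 6 without the low-count filter, 17 with DESeq2, 18 with the length offset, 5 without the 4 libraries rich in short transcripts, 3 without a line term, and 4, 5 and 5 without PD454, PD7591 and PD883. Of all tested genes 33.3% were called with ionomycin in the main fit. This became 35.7% with library totals, 21.1% without the filter, 36.1% with DESeq2 and 36.8% with the offset. Without the 4 libraries it was 27%, without a line term 15.6%, and without PD454, PD7591 and PD883 23.9%, 23.4% and 29.5%. The 25 calls with TGFb became 49 without those 4 libraries, 5 without a line term, 13 with duplicates summed, 3 without PD7591, and 15 with an absolute log2 fold change of at least 0.5. For TGFb the share of all tested genes was 50.7% in the main fit. It became 46.6% without the 4 libraries, 34.9% without a line term, 33.6% with duplicates summed and 37.5% without PD7591. For the limit of 0.5 on the log2 fold change the share is not given here. Treatment and length trend cannot be told apart in the TGFb fit without the 4 libraries. The 47 calls between the treatments became 30 without a line term, where the share of all tested genes went from 62.9% to 48.2%. Line dependence gave 1 call for ionomycin without the 4 libraries, and for TGFb 2 without the filter and 1 each with DESeq2, limma-voom and the offset, in place of 0. Ndufa4 between the treatments turned from -0.57 to 0.012 with the offset. The cause of these changes was not tested. Leaving out 1 library at a time gave 4 to 16 calls with ionomycin, 18 to 43 with TGFb, 42 to 53 between the treatments, 22 to 61 between lines with DMSO, 0 to 2 for line dependence of TGFb and 0 for that of ionomycin. In these fits 26.7% to 34.7% of all tested genes were called with ionomycin. With TGFb it was 45.5% to 52.3%, and between the treatments 58.6% to 63%. For lines with DMSO and for line dependence no such share was worked out. Of the named calls, 2 of 10 with ionomycin, 1 of 16 with TGFb and 14 of 26 between the treatments passed under all 32 alternatives. The member medians ran from -0.29 to -0.0047 with ionomycin, from 0.11 to 0.44 with TGFb and from -0.55 to -0.12 between the treatments. The line term compared treatments within lines, and single libraries were not paired further because the groups share no library numbers. The length trend differed within duplicates, and 2 libraries a group limit what single lines can show.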
